A study of Drosophila melanogaster with 15 samples.

Results

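The 7 genes described here are Tb, ect, amd, kar, bw, PH4alphaEFB and PH4alphaSG1. Their grouping covers the cuticle, its tanning, pigment transport and the hydroxylation of collagen, although the study annotates ect with tube development. They were taken by symbol and public identifier from a table of genes that the study had selected, in which 136 genes could be given 1 current name and 1 probe set (the group of array probes that reports on 1 transcript or set of transcripts), among 18952 probe sets on the array. The groups were pri mutants (pri -/-, allele pri1), svb mutants (svb -/-, allele svbR9) and wild-type (wt) embryos of Drosophila melanogaster, each with 5 samples of 200 whole embryos at 13 to 15 h after egg laying. Mutant embryos were picked by hand with the help of GFP balancer chromosomes, and RNA of each sample was read on 1 Affymetrix array. Neither the sex of the embryos nor the stock of the wt embryos is stated in the labels. The study asked which genes lie downstream of Shavenbaby (Svb), the transcription factor of the epidermal cells that form trichomes, the hairs of the larval cuticle, and pri encodes small peptides that turn Svb into an activator.

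The insect cuticle is a layered coat of chitin fibres and proteins that epidermal cells secrete, and that is hardened by cross-linking with products of catecholamine metabolism. Colour in flies comes from melanin in the cuticle and from ommochromes and pteridines, whose precursors are carried across membranes into pigment granules. Prolyl 4-hydroxylase, an enzyme of the endoplasmic reticulum, hydroxylates prolines in collagen, and its alpha subunit carries the catalytic site. In the RefSeq annotation (assembly Release 6 plus ISO1 MT) amd lies on chromosome arm 2L, bw on 2R, ect on 3L and the other 4 genes on 3R. PH4alphaEFB and PH4alphaSG1 are near neighbours, with 7 annotated genes between their starts, of which 3 are also PH4alpha genes (PH4alphaSG2, PH4alphaMP and PH4alphaNE1). The annotation names 8 PH4alpha genes, all on 3R, and only PH4alphaEFB and PH4alphaSG1 have a named row in the authors' table.

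All 7 genes had a lower signal in pri mutants than in wt, between 5.10-fold for ect and 2.29-fold for kar. None of them was called in svb mutants, where mean signals stood at 88.1% to 98.4% of wt. The study had chosen its table on these same arrays for a fall in both mutants and a further decrease in pri, so that these directions were set by the choice of genes and are given as a description. By staining of RNA in embryos (in situ hybridization), the study scored Tb, ect and PH4alphaEFB as reduced in svb mutants. With svb expressed ectopically, it scored a response for Tb and PH4alphaEFB but not for ect. For amd, kar, bw and PH4alphaSG1 it gives no staining result. It also reports that known targets often fell only modestly in RNA of whole svb embryos. A gene not called here may thus still depend on svb in some cells. Values are signals of the MAS 5.0 algorithm on a linear scale, scaled to the same trimmed mean on each array. Differences come from a limma fit on the log2 scale over the 8631 probe sets with a group mean of at least 5 (a signal of 32), and a gene was called at an adjusted p under 0.05. All 7 genes passed this filter in wt and svb, and only Tb lay under it in pri. In whole embryos, fewer cells of a type and less RNA per cell cannot be told apart.

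Arrays differed in ways that touch all values below. The median signal of all probe sets ranged from 15.1 to 17.5 on pri arrays, from 9.82 to 15.6 on svb arrays and from 12.8 to 15.0 on wt arrays. By principal components svb replicate 4 was the most distant svb array, with a score of -86.9 on the leading component, which held 57.3% of the variance, while the rest of that genotype scored -45.5 to -8.52. The ratio of 3' to 5' signal for the control transcript eIF-4a, a measure of RNA integrity, was 5.01 to 6.71 on pri arrays, 5.43 to 6.48 on svb arrays and 5.98 to 10.3 on wt arrays, for actin 2.94 to 3.44, 2.64 to 3.70 and 2.87 to 6.07, and for GAPDH 2.44 to 2.96, 2.38 to 2.63 and 2.49 to 3.84. A further GAPDH probe pair had ratios of 12.0 to 20.8 on pri arrays, 5.71 to 13.9 on svb arrays and 9.60 to 21.3 on wt arrays, with medians of 17.6, 10.1 and 16.6, the lowest being that of svb. The part of these differences in the results was not tested. The targeted genes svb and pri have no named row, so that the labels of the mutant arrays were not checked against them.

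**Figure D1:**
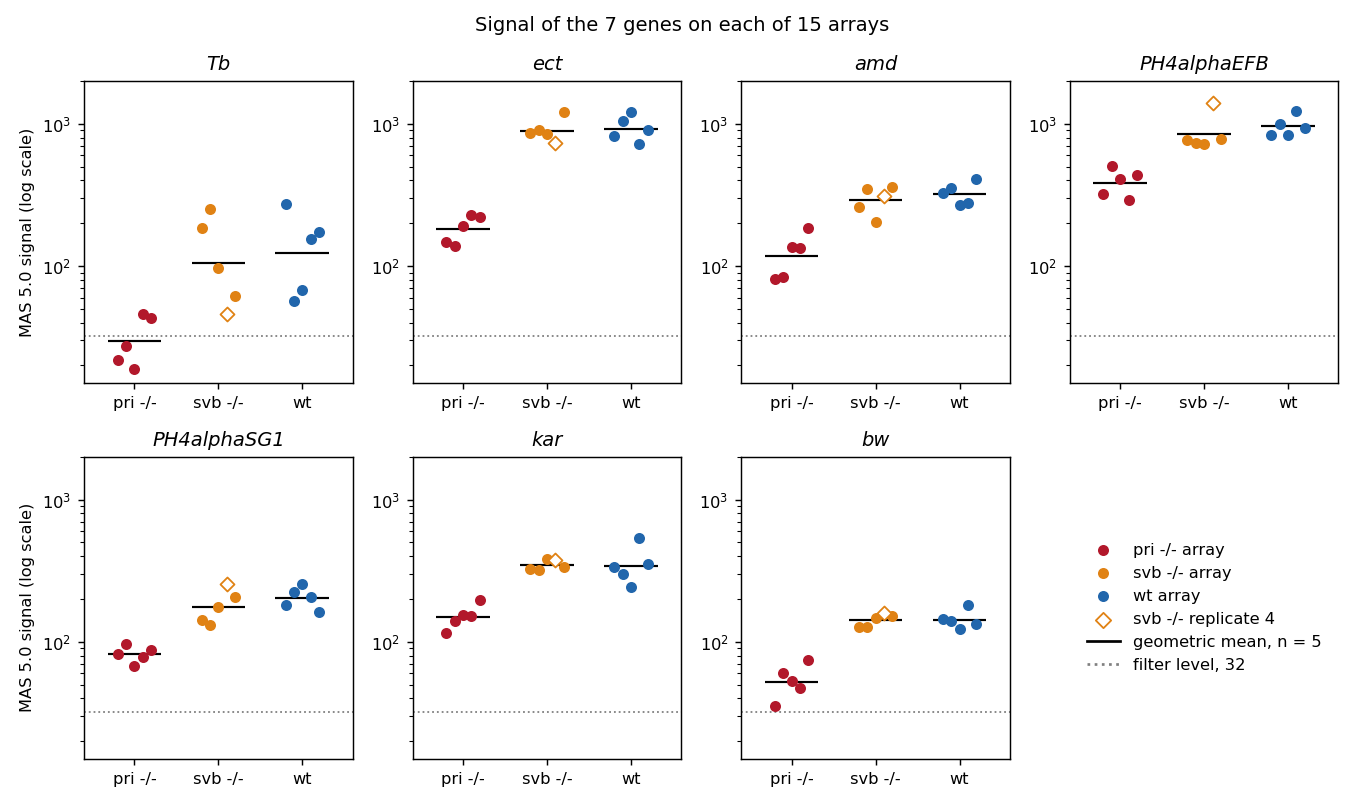
MAS 5.0 signal (log scale) of the 7 genes on each array of pri mutants, svb mutants and wt, with the geometric mean of 5 arrays as a bar, the open diamond for svb replicate 4 and the dotted line at the filter level of 32. The pri arrays lie below all svb and wt arrays for each gene, whereas svb and wt arrays overlap.

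Tb (Tubby), a cuticle protein of the Tweedle family whose dominant alleles give short, thick larvae and pupae, (CG5480) was the only one of the 7 with a pri mean under the filter level. Its signals were 21.9, 27.2, 19.0, 45.7 and 43.0 in pri mutants, 186, 253, 97.2, 46.1 and 61.8 in svb mutants, and 275, 57.2, 67.5, 154 and 174 in wt embryos (replicates 1 to 5). The groups pri and svb were separated by less than 1 unit of signal, since the highest pri array had 45.7 and the lowest svb array 46.1, and the svb and wt arrays overlapped over most of their ranges. Mean signals were 31.4 ± 12.2 in pri mutants, 129 ± 88.2 in svb mutants and 146 ± 88.9 in wt (SD, n = 5 each). Because the pri mean on the log2 scale was under 5, the decrease is given as a bound on the estimate. With 5 in place of that mean it was 3.85-fold against wt and 3.30-fold against svb. The test was made on the measured signals and not on this bound. It gave limma adjusted p = 0.00343 against wt and limma adjusted p = 0.00585 against svb. The bound does not cover the scatter of the arrays. In the fit, 95% confidence intervals were 2.04 to 8.55-fold against wt and 1.75 to 7.32-fold against svb. In svb mutants the difference from wt was -0.22 on the log2 scale, with a 95% confidence interval from -1.26 to 0.81 (limma adjusted p = 0.885). With an interval this wide, neither the direction nor the size of a difference can be read from these arrays.

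The spread of Tb between arrays of 1 genotype was among the widest of all tested probe sets. Its SD on the log2 scale was 0.57 in pri mutants, 1.04 in svb mutants and 0.96 in wt, against medians of 0.27, 0.33 and 0.27 over the tested probe sets. A smaller SD than that of Tb was found for 94.0% of them in pri, 94.5% in svb and 97.7% in wt. Within wt, replicates 2 and 3 had signals of 57.2 and 67.5 and the other 3 had 154 or more, whereas svb replicates 1 and 2 had 186 and 253 and the other 3 had 97.2 or less. The named genes with the signal pattern most like that of Tb over the 15 arrays were CG2663 (Pearson r = 0.85 on the log2 scale) and CG11786 (r = 0.80), lower values of likeness than for any other of the 7 genes.

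The gene ect (ectodermal), named for its expression in the ectoderm (CG6611), had the largest decrease in pri mutants of the 7 that could be measured above the filter level. Its signals were 147, 138, 190, 228 and 221 in pri mutants, 858, 898, 855, 733 and 1207 in svb mutants, and 816, 1041, 1210, 717 and 911 in wt embryos. The highest pri array was thus more than 3-fold below the lowest of the other 10 arrays, and the svb range lay within that of wt. Means were 185 ± 41.3 in pri mutants, 910 ± 177 in svb mutants and 939 ± 193 in wt (SD, n = 5 each), which left 19.7% of the wt signal in pri and 96.9% in svb. The decrease in pri was 5.10-fold against wt, with a 95% confidence interval of 3.90 to 6.68 (limma adjusted p = 1.17e-07), and 4.96-fold against svb (limma adjusted p = 1.14e-07). For svb against wt the log2 difference was -0.04, with an interval from -0.43 to 0.35 (limma adjusted p = 0.946).

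The values of ect and bw were read from the value table, because their rows in the authors' deposited table join signals of different probe sets. In the row of ect the 5 wt signals equal those of the probe set used here, while the 10 mutant signals equal those of another probe set that was dim on every array, at 5.08 to 6.83 in pri, 7.60 to 15.4 in svb and 7.82 to 12.3 in wt. The row of bw likewise joins the wt signals of the probe set used here to the mutant signals of another, which had 0.617 to 2.54 in pri, 4.30 to 11.0 in svb and 0.914 to 7.62 in wt. Both of these other probe sets lie under the filter level in all genotypes, so that a comparison along the row sets a bright probe set against a dim one. Read that way, the log2 difference of svb from wt would be -6.48 for ect and -4.31 for bw. The list printed in the study's supplement does not show this mixture. It gives ect at 19.7% of wt in pri and 96.9% in svb, and bw at 37.4% and 98.4%. These percentages equal those of the probe sets used here.

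The gene amd (alpha methyl dopa-resistant) encodes a relative of Dopa decarboxylase that acts in catecholamine metabolism of the cuticle and is needed for a sound larval cuticle (CG10501). Its signals were 81.5, 83.8, 137, 134 and 186 in pri mutants, 261, 347, 205, 311 and 359 in svb mutants, and 327, 355, 270, 278 and 406 in wt embryos. The highest pri array (186) came close to the lowest svb array (205), and 2 of the 5 pri arrays lay at 24.9% and 25.6% of the wt mean, while replicate 5 lay at 57.0%. Means were 125 ± 43.5 in pri mutants, 297 ± 63.8 in svb mutants and 327 ± 56.4 in wt (SD, n = 5 each). The decrease was 2.73-fold in pri against wt, with an interval of 1.96 to 3.80 (limma adjusted p = 0.000141), and 2.45-fold against svb (limma adjusted p = 0.000260). For svb against wt it was 1.11-fold, with an interval from 0.799 to 1.55 (limma adjusted p = 0.806).

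The named gene most like amd over the 15 arrays was CG15239 (Pearson r = 0.98 on the log2 scale), followed by CG9503 (r = 0.95). CG15239 kept that place when each genotype's mean was taken away, so that only the scatter between arrays of 1 genotype was left (r = 0.97, and 0.95 without the 2 arrays farthest from the median). Its mean signals were 233 ± 72.1 in pri mutants, 1166 ± 280 in svb mutants and 1202 ± 226 in wt (SD, n = 5 each). These values of r describe the 15 arrays, which share a genotype in fives and the scaling of each array.

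Pigment transport is represented by kar and bw. The gene karmoisin (kar) is known for an eye colour mutant and encodes a protein of the monocarboxylate transporter family, and brown (bw) encodes an ABC transporter subunit that pairs with White to carry pteridine precursors. For kar (CG12286) the signals were 116, 141, 153, 151 and 196 in pri mutants, 322, 320, 383, 378 and 334 in svb mutants, and 337, 299, 242, 533 and 355 in wt embryos. The svb arrays of kar lay closer together than those of either other genotype (SD on the log2 scale 0.27 in pri, 0.13 in svb and 0.42 in wt), and all 5 fell within the wt range. Means were 151 ± 29.1 in pri mutants, 347 ± 30.6 in svb mutants and 353 ± 109 in wt (SD, n = 5 each). The decrease of 2.29-fold in pri against wt, with an interval of 1.74 to 3.01, was the smallest of the 7 (limma adjusted p = 0.000134), and the pri mutants were 2.32-fold below svb mutants (limma adjusted p = 7.92e-05). Between svb and wt the log2 difference of kar was 0.02, with an interval from -0.37 to 0.41 (limma adjusted p = 0.974).

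The bw signals (CG17632) were 35.2, 60.0, 53.1, 47.1 and 74.5 in pri mutants, 127, 128, 146, 160 and 151 in svb mutants, and 145, 140, 122, 183 and 133 in wt embryos. On the pri arrays bw was close to the filter level of 32, above which all 5 still lay, and its svb arrays fell within the wt range. Means were 54.0 ± 14.6 in pri mutants, 142 ± 14.5 in svb mutants and 144 ± 22.9 in wt (SD, n = 5 each). The decrease in pri was 2.73-fold against wt, with an interval of 2.11 to 3.55 (limma adjusted p = 1.48e-05), and 2.70-fold against svb (limma adjusted p = 1.17e-05). For svb against wt the log2 difference was -0.02, with an interval from -0.39 to 0.36 (limma adjusted p = 0.979).

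Array by array, kar and bw moved together more than any other pair among the 7 genes. Over 21 pairs, the deviations from the genotype means had a median Pearson r of 0.06, and 13 pairs were positive. For kar and bw r was 0.80 and Spearman's rho 0.73 over the 15 arrays, and r was 0.82 without the 2 arrays farthest from the median of kar. In pri mutants replicate 1 was the lowest for both genes and replicate 5 the highest, and in wt replicate 3 was the lowest for both and replicate 4 the highest. By the pattern over all 15 arrays the named gene most like kar was bw (r = 0.97), followed by SrpRalpha (r = 0.96). The 2 most like bw were wus and kar (r = 0.97 each). The likeness within genotypes was not particular to this pair. By deviations from the genotype means, 2 named genes outside the 7 were nearer to kar (r = 0.805 each) than bw was (r = 0.795). For bw, Orct (r = 0.794) came next to kar.

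**Figure D2:**
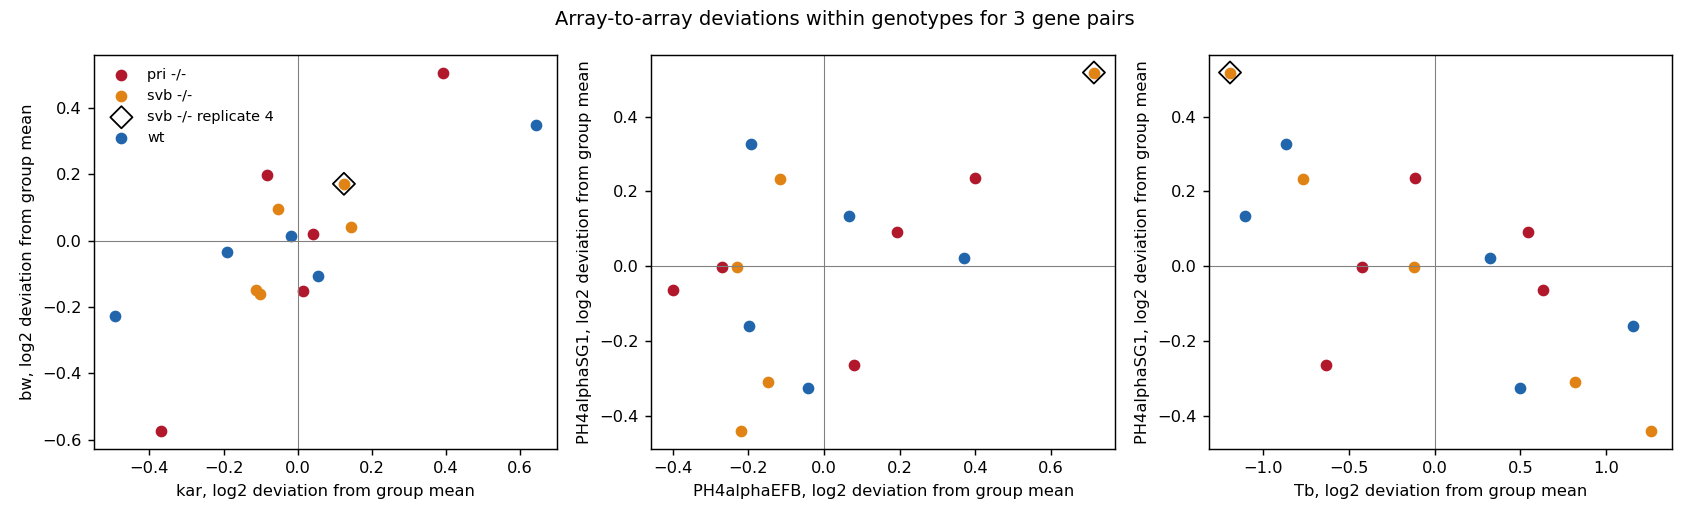
Deviation of each array from its genotype mean on the log2 scale for 3 pairs of genes, coloured by genotype, with a diamond around svb replicate 4. The points of kar and bw run along the diagonal (r = 0.80), those of PH4alphaEFB and PH4alphaSG1 scatter with svb replicate 4 at the far corner (r = 0.53, and r = 0.12 without the 2 arrays farthest from the median), and those of Tb and PH4alphaSG1 run the opposite way (r = -0.73).

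Both prolyl 4-hydroxylase alpha subunits decreased to a like extent in pri mutants. PH4alphaEFB (CG31022), named for epidermis and fat body, had signals of 319, 508, 407, 292 and 440 in pri mutants, 767, 729, 724, 1392 and 783 in svb mutants, and 836, 1004, 839, 1241 and 931 in wt embryos. Replicate 4 of svb was the highest of all 15 arrays, and the other 4 svb arrays lay below all 5 wt arrays. Means were 393 ± 88.5 in pri mutants, 879 ± 288 in svb mutants and 970 ± 167 in wt (SD, n = 5 each), and the decrease in pri was 2.49-fold against wt, with an interval of 1.87 to 3.33 (limma adjusted p = 9.77e-05), and 2.21-fold against svb (limma adjusted p = 0.000241). For svb against wt the log2 difference was -0.18, with an interval from -0.59 to 0.24 (limma adjusted p = 0.734). Without svb replicate 4 the svb mean was 751 ± 28.9 (SD, n = 4), or 77.4% of wt, and the log2 difference was -0.35 (limma adjusted p = 0.221).

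PH4alphaSG1 (CG31014), named for the salivary gland, had signals of 81.4, 96.0, 67.9, 78.1 and 86.8 in pri mutants, 142, 130, 176, 253 and 208 in svb mutants, and 183, 224, 256, 207 and 163 in wt embryos. Its pri arrays were the tightest of the 7 genes (SD on the log2 scale 0.19), and 3 of the 5 svb arrays lay within the wt range. Means were 82.0 ± 10.4 in pri mutants, 182 ± 49.9 in svb mutants and 207 ± 36.1 in wt (SD, n = 5 each). The decrease in pri was 2.50-fold against wt, with an interval of 1.92 to 3.27 (limma adjusted p = 4.46e-05), and 2.17-fold against svb (limma adjusted p = 0.000147). For svb against wt it was 1.16-fold, with an interval from 0.884 to 1.51 (limma adjusted p = 0.632). As for PH4alphaEFB, svb replicate 4 was the highest svb array, and without it the svb mean was 164 ± 34.9 (SD, n = 4), or 79.5% of wt (log2 difference -0.34, limma adjusted p = 0.265).

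Within genotypes, the deviations of these neighbouring genes had r = 0.53 over the 15 arrays, and r = 0.12 without the 2 arrays farthest from the median of PH4alphaEFB, so that the value rests on those arrays. PH4alphaEFB varied more closely with bw (r = 0.66, and 0.73 without the 2 farthest arrays). PH4alphaSG1 went against Tb, with r = -0.73 and Spearman's rho = -0.73, and -0.65 without the 2 arrays farthest from the median of Tb, the lowest value among the 21 pairs. The named genes most like PH4alphaEFB over all arrays were Gmap (r = 0.98) and Orct (r = 0.97), those most like PH4alphaSG1 were tw and CG11836 (r = 0.97 and 0.96), and those most like ect were CG42331 (r = 0.99) and Pdss2 (r = 0.98). All candidates for such likeness come from a table chosen for low signals in pri, so that high values of r over all arrays are common among them.

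**Figure D3:**
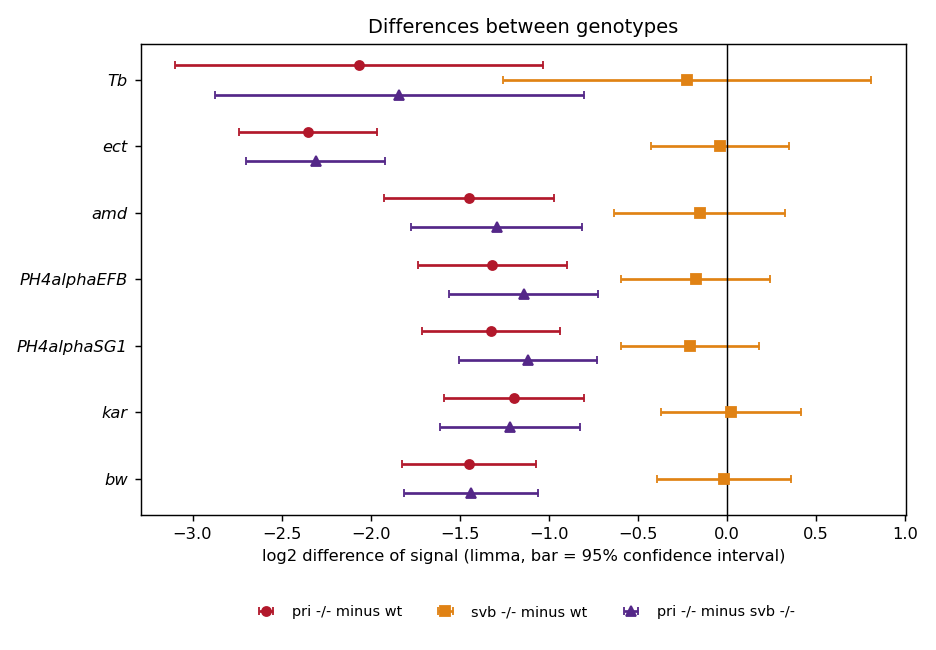
Log2 difference of signal with its 95% confidence interval (limma, 5 arrays per genotype) for pri minus wt, svb minus wt and pri minus svb. All intervals of the comparisons with pri lie below 0, while every interval of svb minus wt includes 0 and is widest for Tb, from -1.26 to 0.81.

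Counted over the 7 genes, limma called 7 lower in pri than in wt, against 23.1% of all tested probe sets (18.3% were called higher), and 7 lower in pri than in svb, against 24.7% (21.5% higher). Since the table was chosen on these contrasts, nothing further is read from these counts. In svb mutants limma called 0 of the 7, against 4.00% of tested probe sets called lower and 2.02% called higher, and 0 had an unadjusted p under 0.05. The arrays of pri lay below all wt arrays for 7 of the 7 genes, against 14.2% of tested probe sets, and below all svb arrays for 7 of 7, against 13.8%. The arrays of svb and wt overlapped for each of the 7, while 4.06% of tested probe sets were lower and 2.36% higher on all svb arrays than on all wt arrays. Higher on all pri arrays were 0 of the 7, against 14.8% of tested probe sets in comparison with wt and 16.5% in comparison with svb. The median log2 difference of the 7 genes was -1.45 for pri against wt, -0.15 for svb against wt and -1.29 for pri against svb, beside -0.04, -0.01 and -0.03 over all tested probe sets.

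Compared with the other genes of the authors' table, the 7 genes were not among the strongest decreases. By the size of the fall in pri against wt ect ranked 34, Tb 46, bw 86, amd 87, PH4alphaSG1 98, PH4alphaEFB 99 and kar 119 of 136. In svb against wt Tb ranked 54, PH4alphaSG1 56, PH4alphaEFB 68, amd 77, ect 123, bw 131 and kar 135 of 136. The residual signals therefore fell into a pair with 19.7% and 21.5% of the wt signal in pri (ect and Tb) and a set of 5 with 37.4% to 42.8% (bw, amd, PH4alphaSG1, PH4alphaEFB and kar). Whether the falls differ between genes was not tested, and the interval of Tb (2.04 to 8.55-fold) includes the falls of all 6 other genes.

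**Figure D4:**
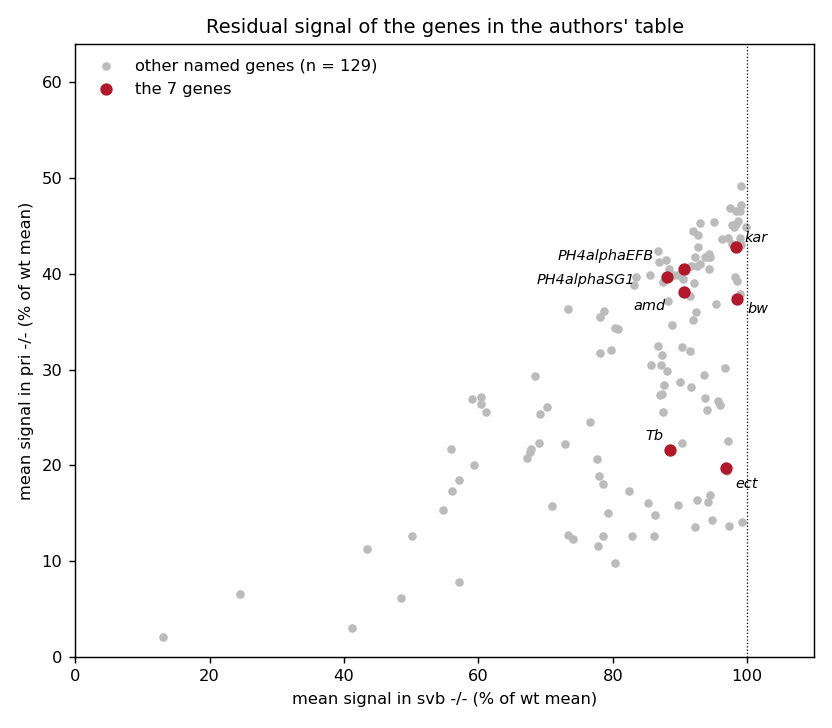
Mean signal in pri mutants (vertical) against that in svb mutants (horizontal), both as a percentage of the wt mean of 5 arrays, for the 136 named genes of the authors' table. The 7 genes lie at 88.1% to 98.4% of wt in svb, with ect and Tb at about 20% of wt in pri and the other 5 at 37.4% to 42.8%.

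Genes of the same pathways could be followed only where the authors' table names them. Of 28 names listed for catecholamine metabolism, tanning and melanin only amd has a named row, and of 29 names for eye pigments only bw and kar. Of 18 names for prolyl hydroxylation and basement membrane, which include the collagen genes Col4a1 and vkg, only the PH4alpha members PH4alphaEFB and PH4alphaSG1 have one. The list of cuticle and apical matrix genes has 62 names, of which 9 have a named row: Tb, ect, the ZP domain genes nyo, neo, mey, m, dyl and tyn, and wus, which is needed in the trachea. Limma called all 9 lower in pri than in wt and in pri than in svb, and the falls in pri against wt were 16.1-fold for m, 12.8-fold for mey, 8.05-fold for wus, 6.39-fold for nyo, 6.38-fold for dyl, 5.81-fold for neo and 4.60-fold for tyn. In svb against wt m, neo, nyo and mey were called lower, by 2.10-fold, 1.84-fold, 1.80-fold and 1.79-fold, and the other 5, Tb and ect included, were not called. These 9 were picked by the study for their fall, and they do not speak for their pathways.

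Lists of markers for cell types other than the epidermis gave few named rows. On the lists for salivary gland (7 names), Malpighian tubule (6), plasmatocytes (7) and midgut (4) the only named genes were PH4alphaSG1, bw, PH4alphaEFB and kar themselves, and the lists for fat body, muscle and trachea had 0. The amount of these tissues in the samples was thus not followed by other genes. On the epidermal list 5 of 9 names have a named row (vri, sha, m, f and mwh). Limma called all 5 lower in pri than in wt, with folds of 3.21 for vri to 16.1 for m, and in svb against wt only sha (4.08-fold) and m (2.10-fold). Of all tested probe sets, 23.1% were called lower in pri than in wt and 4.00% lower in svb than in wt. Because these 5 come from a table chosen for such falls, their direction was set by that choice. The amount of epidermis was thus not followed either.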

How the data were processed

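Deposited values are signal intensities on a linear scale. The authors computed them with MAS 5.0 in Affymetrix Expression Console 1.1 on Drosophila Genome 2.0 arrays and scaled each array to a trimmed mean of 100, which assumes equal total signal between genotypes. Detection calls were not used, no scan batch is named in the labels, and no build of the probe annotation is given in the sources used here. Precision is limited by the 5 arrays per genotype.

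Of 149 rows in the authors' table of selected genes, 145 matched 1 probe set on all 15 arrays (relative tolerance 1e-05) and 4 matched none, among them ect and bw. Symbols were updated through RefSeq. The 183 control probe sets were left out. Without an offset, log2 signals were filtered at a highest group mean of 5 (8631 kept, 10138 left out) and fitted with limma 3.58.1 in R 4.3.3 (eBayes with a trend, 3 contrasts, Benjamini-Hochberg over all tested probe sets, threshold 0.05). For a group mean below the filter level, that level stands in for background and gives a bound on the estimated fold, not on its interval. Intervals are 95% confidence intervals of this fit, and signals are mean ± SD. Named are the 7 genes, for each the 2 named genes with the highest Pearson correlation of log2 signal over the 15 arrays, and all genes of the pathway and marker lists with a row. The 7 genes and the lists were chosen with earlier results of these data known. No 2 arrays held the same values (highest correlation of log2 signal 0.966). The study calls the samples independent. The fit was tested on simulated data. Alternatives were other normalisations, other filters, an offset of 16, array weights, no trend in eBayes, the replicate block, only 2 groups, the authors' rows for ect and bw, and leaving out each array.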

Additional observations from a re-analysis of the deposited data

Results flagged for a closer look

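For PH4alphaEFB in svb mutants, replicate 4 had a signal of 1392, while the other 4 svb arrays lay between 724 and 783. The gap to the nearest array was 0.91 of the range of the group, above Dixon's 95% critical value of 0.71 for 5 samples. This was the only such sample among 21 groups (7 genes in 3 genotypes), and chance flags about 1 in 20. The same array was the most distant svb array by principal components, and its part in this value was not tested.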

How the results depend on the processing

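All 7 genes stayed lower in pri than in wt and in pri than in svb, with an adjusted p under 0.05, in the 15 fits that left out 1 array and in 10 other alternatives, the limma adjusted p being at most 0.0108 and 0.0169 without 1 array and 0.00743 and 0.0110 in the others. In svb against wt none of the 7 was called in any fit, except with the authors' rows for ect and bw, which called 2 (log2 difference -6.48 and -4.31). With those rows the log2 differences of pri from wt were -7.27 for ect and -6.95 for bw, and those of pri from svb -0.80 and -2.64. Small svb differences changed sign: with array weights kar was at -0.070, Tb at 0.28 and ect at 0.013, and leaving out 1 array gave -0.10 to 0.18 for kar, -0.54 to 0.074 for Tb, -0.15 to 0.056 for ect and -0.072 to 0.072 for bw. The counts of tested probe sets lower and higher in svb than in wt, 345 and 174, were 218 and 103 with the filter at 6.5, 569 and 348 with array weights and 221 and 109 with only both groups compared. Where a cause is not given by the construction of an alternative (fewer probe sets or arrays), it was not tested. Correlations of deviations between same-numbered arrays were of mixed sign, from -0.61 to 0.37. Arrays with different numbers were not compared, so that this range cannot decide whether the replicate numbers pair the arrays. With the replicate block the counts for svb against wt were 273 and 138, and it changed no call of the 7 genes. Of the 14 most like genes named, 6 were the same when deviations from genotype means were correlated. Signals near the filter level, as for Tb and bw in pri, limit what can be said of the size of these falls.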
